A study of Mus musculus with 9 samples.

Results

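The AP-1 and ATF3 transcription factors of RAW264.7 cells, a mouse macrophage line, are described here across 3 treatment groups. They are 10 genes, taken from the deposited table by their symbols: the FOS family (Fos, Fosb, Fosl1, Fosl2), the JUN family (Jun, Junb, Jund), and Atf3, Maff and Batf. Each symbol had 1 row among the 56748 genes of the table, and all 10 were among the 12454 genes with enough reads to test. The P-Mn@mHSA group was given nanoparticles that hold nanoenzymes, that is, catalytic nanomaterials. The P-Mn/TI@mHSA group was given particles of that kind with a TRAF6 inhibitor added; TRAF6 is a ubiquitin ligase that relays signals from Toll-like receptors and the interleukin-1 receptor. The PBS group was given buffer. All 3 groups, PBS included, were under a model condition left unnamed in the labels, with 3 RNA sequencing libraries each. Dose and time are not stated, and neither an empty carrier nor the free inhibitor is among the groups. The cells are 1 established line, and the labels do not say whether triplicates were separate cultures, so p-values reflect only library-to-library spread, possibly technical.

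AP-1 is a dimer of basic leucine zipper proteins that binds DNA and is built mainly from a FOS and a JUN protein. JUN proteins can also pair with each other, whereas FOS proteins need a partner. Fos, Fosb, Jun and Junb are among the immediate early genes, whose mRNAs decay fast. Mitogen-activated protein (MAP) kinases, for some with the serum response factor, switch on their transcription within minutes of a stimulus. ATF3 is induced by many stresses and often represses, and in macrophages it is known as a brake on genes that Toll-like receptors induce. BATF and the small MAF protein MAFF have a zipper but no activating domain of their own, so they act through their partners.

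Total counts were 13994570 to 15543439 per library, and within a group the libraries had Pearson r of 0.9881 to 0.9915 over genes in log2 CPM (counts scaled to a common depth). All 9 macrophage markers examined were transcribed. Their summed FPKM (counts scaled by gene length and depth) was 2100 to 2120 in P-Mn@mHSA libraries, 2030 to 2200 in P-Mn/TI@mHSA libraries and 3090 to 3220 in PBS libraries. In each comparison with PBS, 4 of them rose (Csf1r, Spi1, Cd68 and Fcgr1) and 4 fell (Lyz2, Adgre1, Itgam and Cd14). That is 88.9% called at an edgeR adjusted p under 0.05, where 48.5% of all genes tested were with P-Mn@mHSA and 54.4% with P-Mn/TI@mHSA. Summed markers of neutrophils were at 0.509 to 1.1 FPKM with P-Mn@mHSA, 0.194 to 1.22 with P-Mn/TI@mHSA and 1.85 to 3.24 with PBS, with S100a9 and Ly6g at 0 in all libraries. Summed markers of T cells, B cells, fibroblasts, endothelial and epithelial cells were at most 1.14 FPKM. Mitochondrial transcripts took 1.31 to 1.79%, 1.11 to 1.34% and 1.77 to 2.2% of counts in the P-Mn@mHSA, P-Mn/TI@mHSA and PBS groups. The part of these differences in the results below was not tested. In bulk RNA, fewer cells of a kind and less RNA per cell cannot be told apart.

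The proximal promoters of 5 members are shown because these genes span the responses described below: Fos, Atf3 and Maff rose, Jun moved little, and Batf fell. Each runs from 250 bases before to the first 50 bases of the transcript, 5′ to 3′ on the gene's strand, from RefSeq on GRCm38.p6. Capitals mark matches on either strand to TGANTCA (the AP-1 element), TGACGTCA (the cyclic AMP response element), TGACATCA (a variant of it), TGATGCAA (a composite element of C/EBP and ATF proteins), TGACGT (the core of the response element, also inside TGACGTCA), the CArG box of serum response factor or the kappaB site.
Fos, chr12:85473640-85473939, plus strand: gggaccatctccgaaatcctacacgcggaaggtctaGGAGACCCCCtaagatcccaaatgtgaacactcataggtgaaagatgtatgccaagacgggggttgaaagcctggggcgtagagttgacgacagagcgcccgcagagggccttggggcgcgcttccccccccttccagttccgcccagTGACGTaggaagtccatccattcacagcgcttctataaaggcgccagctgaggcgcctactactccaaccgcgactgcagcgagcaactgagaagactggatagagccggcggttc
Atf3, chr1:191183284-191183583, minus strand: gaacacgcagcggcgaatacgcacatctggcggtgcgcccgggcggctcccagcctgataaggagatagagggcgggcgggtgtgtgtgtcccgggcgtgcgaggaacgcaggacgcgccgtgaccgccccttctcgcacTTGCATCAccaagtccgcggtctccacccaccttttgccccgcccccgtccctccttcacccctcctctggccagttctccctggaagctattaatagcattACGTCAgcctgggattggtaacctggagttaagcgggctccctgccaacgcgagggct
Maff, one of 3 promoters, chr15:79347270-79347569, plus strand: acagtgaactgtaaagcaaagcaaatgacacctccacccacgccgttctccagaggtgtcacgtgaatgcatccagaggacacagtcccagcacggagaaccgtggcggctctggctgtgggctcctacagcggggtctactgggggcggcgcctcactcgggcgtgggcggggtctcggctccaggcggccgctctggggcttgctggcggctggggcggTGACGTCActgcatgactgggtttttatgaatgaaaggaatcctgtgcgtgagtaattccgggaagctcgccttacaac
Jun, chr4:95052173-95052472, minus strand: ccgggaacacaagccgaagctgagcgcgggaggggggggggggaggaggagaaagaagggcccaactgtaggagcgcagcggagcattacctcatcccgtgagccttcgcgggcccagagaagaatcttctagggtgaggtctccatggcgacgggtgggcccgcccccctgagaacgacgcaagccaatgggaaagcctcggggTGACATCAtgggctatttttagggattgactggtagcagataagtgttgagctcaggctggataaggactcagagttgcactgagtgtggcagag
Batf, chr12:85686470-85686769, plus strand: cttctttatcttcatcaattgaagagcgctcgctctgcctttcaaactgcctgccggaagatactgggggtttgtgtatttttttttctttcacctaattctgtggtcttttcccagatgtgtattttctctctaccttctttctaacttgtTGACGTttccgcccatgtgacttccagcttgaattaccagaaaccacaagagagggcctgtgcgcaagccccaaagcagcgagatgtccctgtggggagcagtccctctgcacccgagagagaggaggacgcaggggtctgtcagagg

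A promoter was listed for 9 of the 10 members, and Fosl1 was not matched. No promoter of these 9 held TGANTCA or a CArG box in this window, letters found in 7.81% and 1.63% of all 32851 promoters of the same length. TGACGT, found in 7.51% of them, began 66 bases before the start of Fos and 98 bases before that of Batf, and on the other strand 8 bases before that of Atf3. The whole TGACGTCA, in 1.79% of promoters, began 29 bases before the second Maff start. TGACATCA, in 3.62%, lay 45 bases before both the Jun start and the third Maff start. TGATGCAA, in 0.895%, was read on the other strand 110 bases before the Atf3 start. A kappaB match, in 8.46%, was present in the Fos, Fosb and Fosl2 promoters and in the third one of Maff. No motif of this set fell in the Jund or Junb promoter or in the first one of Maff. These are matches of letters, and they do not show binding.

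Most of the set was higher with particles. With P-Mn@mHSA, 7 of the 10 genes rose against PBS (Atf3, Fosb, Fos, Jund, Junb, Maff and Fosl1), Batf fell, and Fosl2 and Jun did not pass the test. That is 8 of 10 called by edgeR's quasi-likelihood test at an adjusted p under 0.05, in a comparison in which 48.5% of all genes tested were called, 24.3% as higher and 24.1% as lower. Changes of at least 2-fold were fewer over the whole table: 6 members (Atf3, Fosb, Fos, Jund, Junb and Batf) were called at that size, against 8.73% of genes tested. The median log2 fold change of the 10 was 0.998, and that of all genes tested -0.0023. With P-Mn/TI@mHSA, 8 rose (Jun in addition), Batf fell and Fosl2 did not pass, so 9 of 10 were called where 54.4% of genes tested were, 27.1% as higher and 27.3% as lower. Of these, Fos, Fosb, Atf3 and Batf were called at 2-fold or more, against 9.97% of genes tested, and the median log2 fold change was 0.83, against -0.0063 over all genes. Both comparisons use the same 3 PBS libraries, so their agreement is not independent. In CPM, the groups did not overlap for 9 members in either comparison, Fosl2 being the exception. Over all genes tested, 54.6% and 61.5% did not overlap. All these counts include Batf, which passed the filter on low counts through the PBS libraries alone and so had to differ. The members were also chosen with earlier results of these data known.

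**Figure D1:**
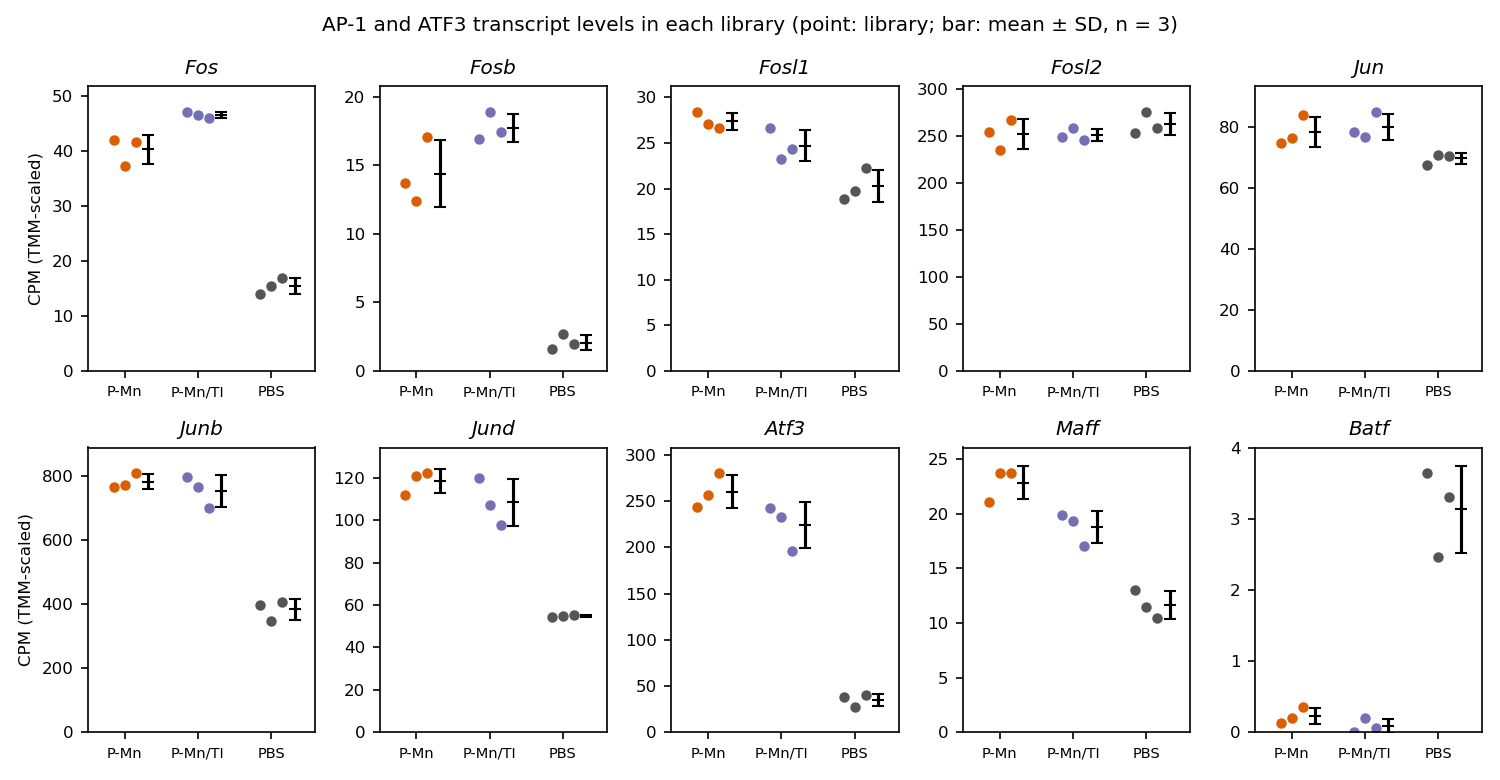
TMM-scaled CPM of each member in each library, on axes that start at 0, with P-Mn@mHSA, P-Mn/TI@mHSA and PBS from left to right. Points are libraries and bars are mean ± SD (n = 3). Fosb and Atf3 stand several-fold above PBS in all 6 particle libraries, Fosl2 overlaps in the 3 groups, and Batf is near 0 in all 6 particle libraries.

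Fos and Fosb encode the FOS proteins with a strong activating domain. Fos (ENSMUSG00000021250, chromosome 12) was at 41.9, 37.3 and 41.6 CPM in the P-Mn@mHSA libraries, at 47.1, 46.6 and 46 CPM in the P-Mn/TI@mHSA libraries, and at 14, 15.4 and 16.9 CPM in the PBS libraries. Every particle library lay above every PBS library, and the 3 P-Mn/TI@mHSA libraries lay above the 3 P-Mn@mHSA libraries. Fos rose 2.61-fold with P-Mn@mHSA (log2 fold change 1.39 ± 0.094 SE, edgeR adjusted p = 1.14e-10) and 3.02-fold with P-Mn/TI@mHSA (1.60 ± 0.093, adjusted p = 1.1e-11).

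Fosb (ENSMUSG00000003545, chromosome 7) moved further from a lower level. It was at 13.7, 12.4 and 17.1 CPM with P-Mn@mHSA, at 16.9, 18.9 and 17.4 CPM with P-Mn/TI@mHSA, and at 1.58, 2.67 and 1.96 CPM with PBS. The particle groups overlapped each other and neither overlapped PBS. Fosb rose 6.94-fold with P-Mn@mHSA (log2 fold change 2.79 ± 0.19, edgeR adjusted p = 1.06e-10) and 8.55-fold with P-Mn/TI@mHSA (3.10 ± 0.185, adjusted p = 1.57e-11). On a log2(FPKM + 1) scale, whose pseudocount of 1 exceeds the Fosb level in PBS, the log2 changes were 1.31 and 1.53.

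Fosl1 and Fosl2 encode FRA-1 and FRA-2, FOS proteins that lack the strong activating domain. Fosl1 (ENSMUSG00000024912, chromosome 19) was at 28.4, 27.1 and 26.6 CPM with P-Mn@mHSA, at 26.6, 23.2 and 24.3 CPM with P-Mn/TI@mHSA, and at 18.9, 19.7 and 22.3 CPM with PBS. All particle libraries lay above PBS, and the particle groups met at 26.6 CPM without crossing. The rise was 1.35-fold with P-Mn@mHSA (log2 fold change 0.43 ± 0.10, edgeR adjusted p = 0.00134) and 1.21-fold with P-Mn/TI@mHSA (0.28 ± 0.10, adjusted p = 0.0234). The call with P-Mn/TI@mHSA was lost without replicate 1 of P-Mn/TI@mHSA (adjusted p = 0.104) and without PBS replicates 1 (0.0988) and 2 (0.0699). Fosl1 overlaps Ccdc85b on the opposite strand, and 52.6% of the 50-base stretches of Fosl1 transcripts occur in antisense in transcripts of other genes. No source used here gives the strand setting of the counting, so reads of this pair may be mixed. Ccdc85b itself had 509 to 554 counts with P-Mn@mHSA, 516 to 607 with P-Mn/TI@mHSA and 400 to 489 with PBS, and rose as well (log2 fold changes 0.27 and 0.30, edgeR adjusted p = 0.0215 and 0.0108). These calls were lost without PBS replicate 2 (adjusted p = 0.118 and 0.074), the first also without P-Mn@mHSA replicate 3 (0.0859) and the second without P-Mn/TI@mHSA replicate 3 (0.0642).

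Fosl2 (ENSMUSG00000029135, chromosome 5), the most abundant FOS transcript per length, passed the test in no comparison. It was at 255, 235 and 267 CPM with P-Mn@mHSA, at 249, 259 and 246 CPM with P-Mn/TI@mHSA, and at 254, 276 and 259 CPM with PBS. The 3 groups overlapped. Its log2 fold change was -0.06 ± 0.06 with P-Mn@mHSA (edgeR adjusted p = 0.445) and -0.07 ± 0.06 with P-Mn/TI@mHSA (adjusted p = 0.387).

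The FOS pool therefore differed in make-up as well as in size. Per length, the 4 FOS transcripts summed to 58.6 ± 2.91 FPKM with P-Mn@mHSA, 60.4 ± 1.04 with P-Mn/TI@mHSA and 43.6 ± 2.06 with PBS (SD, n = 3). Fos and Fosb together made up 32.1 to 33.5% of that sum in P-Mn@mHSA libraries, 37 to 37.5% in P-Mn/TI@mHSA libraries and 14.8 to 16.6% in PBS libraries. The share of Fosl2 was 43.6 to 45.1%, 41.8 to 43.8% and 59.2 to 63.1% in the same order of groups. The share of Fosl1 was 21.4 to 24% with P-Mn@mHSA, 18.7 to 21.3% with P-Mn/TI@mHSA and 21.5 to 24.2% with PBS, so that the P-Mn/TI@mHSA libraries lay below all others. These shares were not tested.

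**Figure D2:**
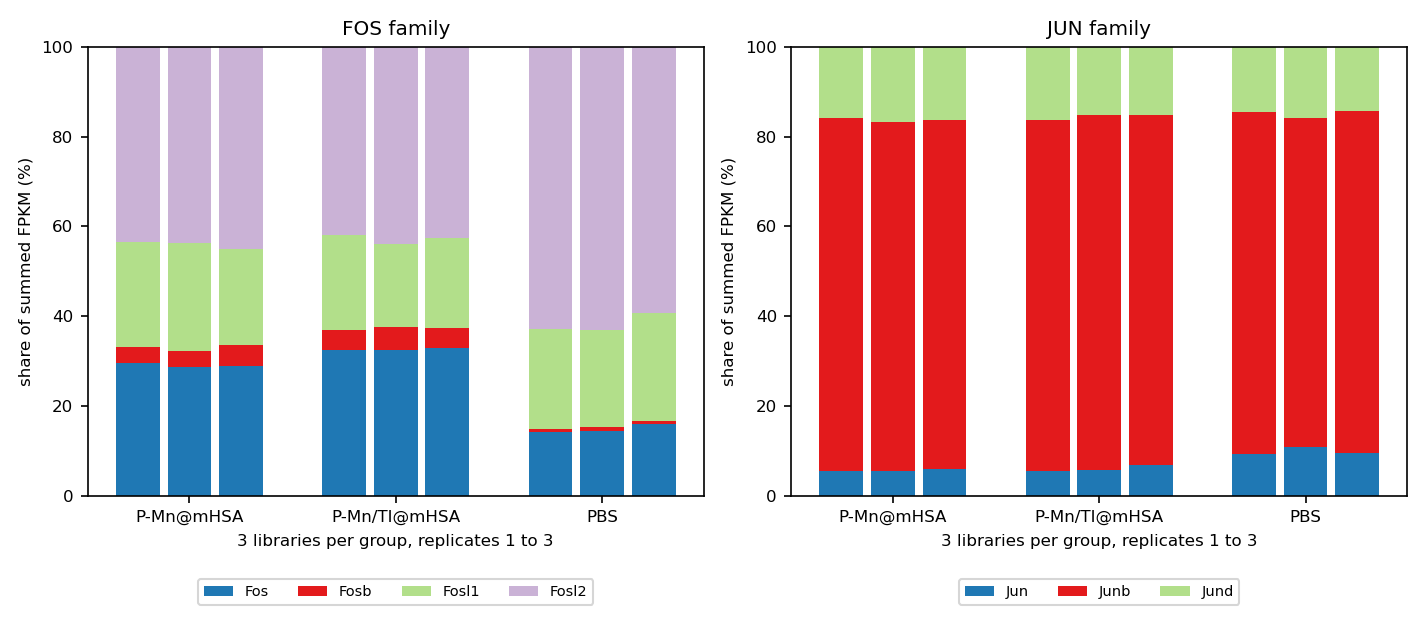
Share of each transcript in the summed FPKM of the FOS family (left) and the JUN family (right), 1 bar per library, with P-Mn@mHSA, P-Mn/TI@mHSA and PBS from left to right. Fos and Fosb take 32.1 to 37.5% of the FOS sum in the 6 particle libraries and 14.8 to 16.6% in the PBS libraries, and Junb takes at least 73.3% of the JUN sum in all 9.

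In the JUN family, Junb and Jund rose and Jun, the strongest activator of the 3 proteins, moved little. Junb (ENSMUSG00000052837, chromosome 8), an immediate early gene whose protein can oppose that of Jun, was at 768, 774 and 809 CPM with P-Mn@mHSA, at 799, 766 and 700 CPM with P-Mn/TI@mHSA, and at 398, 348 and 406 CPM with PBS. Every particle library exceeded every PBS library by a wide margin. Junb rose 2.04-fold with P-Mn@mHSA (log2 fold change 1.03 ± 0.067, edgeR adjusted p = 5.18e-11) and 1.96-fold with P-Mn/TI@mHSA (0.97 ± 0.066, adjusted p = 1.34e-10). The gene overlaps Prdx2 on the opposite strand, and 5.76% of its 50-base stretches occur in antisense in transcripts of other genes. Prdx2 had 3435 to 4562 counts with log2 fold changes of 0.23 and 0.22.

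Jund (ENSMUSG00000071076, chromosome 8) is usually regarded as the steadily transcribed JUN gene, and here it rose by a similar fold as Junb. It was at 112, 121 and 122 CPM with P-Mn@mHSA, at 120, 107 and 97.9 CPM with P-Mn/TI@mHSA, and at 54.5, 54.7 and 55.3 CPM with PBS. The PBS libraries were close together, and all 6 particle libraries lay above them. The rise was 2.16-fold with P-Mn@mHSA (log2 fold change 1.11 ± 0.076, edgeR adjusted p = 1.44e-10) and 1.98-fold with P-Mn/TI@mHSA (0.98 ± 0.076, adjusted p = 9.76e-10). Its antisense neighbour Gm11175 had 0 counts in every library. Of Jund stretches of the length used for Fosl1 and Junb, 48.3% occur in antisense in transcripts of other genes. The strand setting is not given, so the 0 counts do not show that Jund reads were free of mixing or loss.

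Jun (ENSMUSG00000052684, chromosome 4) was at 74.9, 76.6 and 84 CPM with P-Mn@mHSA, at 78.4, 76.9 and 85.1 CPM with P-Mn/TI@mHSA, and at 67.8, 71 and 70.6 CPM with PBS. The groups did not overlap with PBS but lay close to it. The log2 fold change was 0.17 ± 0.07 with P-Mn@mHSA, short of the threshold (edgeR adjusted p = 0.0599), and 0.20 ± 0.07 with P-Mn/TI@mHSA, a 1.15-fold rise (adjusted p = 0.0241). Neither outcome is firm. The call with P-Mn/TI@mHSA was lost when P-Mn/TI@mHSA replicate 3 (adjusted p = 0.119) or PBS replicate 1 (0.0761) was left out and with upper-quartile scaling (0.0524), and Jun was called with P-Mn@mHSA in the fit without P-Mn@mHSA replicate 2 (0.0454) and by limma (0.0418 and 0.0421).

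Per length, the JUN transcripts summed to 434 ± 13.8 FPKM with P-Mn@mHSA, 416 ± 28.1 with P-Mn/TI@mHSA and 220 ± 13.6 with PBS, far above the FOS sum in each group. Junb made up 78.1 ± 0.50%, 78.4 ± 0.50% and 75.2 ± 1.67% of it in the P-Mn@mHSA, P-Mn/TI@mHSA and PBS groups. The share of Jun was 5.53 to 5.83%, 5.54 to 6.85% and 9.37 to 10.8%, lower in each particle library than in each PBS library.

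Atf3 (ENSMUSG00000026628, chromosome 1) showed the smallest p of the set. It was at 244, 257 and 280 CPM with P-Mn@mHSA, at 243, 233 and 196 CPM with P-Mn/TI@mHSA, and at 38, 27.7 and 40.3 CPM with PBS. The particle libraries were all far above PBS, and the P-Mn/TI@mHSA libraries lay just below the P-Mn@mHSA libraries. The log2 fold changes were 2.88 ± 0.11 and 2.66 ± 0.11 (edgeR adjusted p = 6.13e-15 and 2.03e-14), which places Atf3 12th and 17th by p among the 12454 genes tested. Its rank among the 10 members by FPKM also differed: at 120 ± 8.36 FPKM with P-Mn@mHSA and 103 ± 11.7 with P-Mn/TI@mHSA it was second to Junb, and at 16.3 ± 3.1 FPKM with PBS it was the fifth. Atf3 made up 19.3 ± 0.61%, 17.6 ± 0.83% and 5.65 ± 0.78% of the summed FPKM of the set, which was 621 ± 23.7, 587 ± 41.2 and 286 ± 16.5 in the P-Mn@mHSA, P-Mn/TI@mHSA and PBS groups.

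Maff (chromosome 15), a small MAF that pairs with NRF2 and BACH1, rose less. It was at 21.1, 23.7 and 23.7 CPM with P-Mn@mHSA, at 19.9, 19.3 and 17.1 CPM with P-Mn/TI@mHSA, and at 13, 11.5 and 10.5 CPM with PBS. The 3 groups did not overlap and the P-Mn/TI@mHSA libraries lay in the middle. The rise was 1.96-fold with P-Mn@mHSA (log2 fold change 0.97 ± 0.12, edgeR adjusted p = 8.75e-07) and 1.61-fold with P-Mn/TI@mHSA (0.68 ± 0.12, adjusted p = 5.68e-05).

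Batf (chromosome 12) was the only member that fell. BATF pairs with JUN proteins and works with IRF4 and IRF8 in lymphocytes and dendritic cells. It had 2, 3 and 5 counts in the P-Mn@mHSA libraries, 0, 3 and 1 in the P-Mn/TI@mHSA libraries, and 53, 36 and 49 in the PBS libraries. It was thus a low transcript in PBS and near 0 in the particle libraries. From the summed counts, Batf was 13.5-fold lower with P-Mn@mHSA than with PBS (95% interval of counting error 7.14 to 28.9) and 35.3-fold lower with P-Mn/TI@mHSA (13.5 to 131). The fitted log2 fold changes were -3.71 ± 0.48 and -5.01 ± 0.56 (edgeR adjusted p = 1.74e-06 and 1.89e-07). Batf passed the filter on low counts through the PBS libraries alone, where it is high, so a gene kept in this way had to differ. With so few reads the size is loose: leaving out P-Mn/TI@mHSA replicate 2 made the second value -6.23, and on the log2(FPKM + 1) scale the 2 values were -1.46 and -1.59. Batf starts 213 kb downstream of Fos on the same strand of chromosome 12 in GRCm38.p6, and Fos and Batf moved in opposite directions. Genes between them were not examined. The gene for one partner, Irf8, rose with both particles (log2 fold changes 0.39 and 0.46, edgeR adjusted p = 0.000458 and 5.63e-05), while Irf4 did not pass the test.

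**Figure D3:**
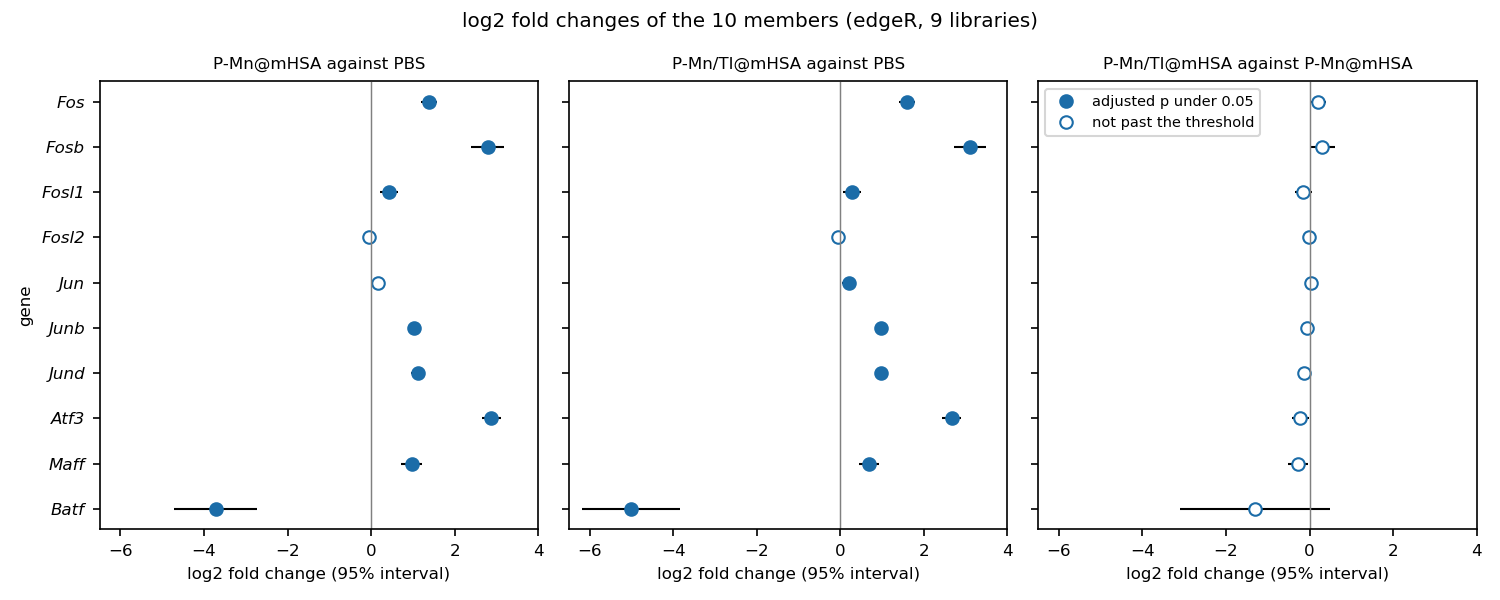
log2 fold changes with 95% intervals for the 10 members from the edgeR fit of 9 libraries, with a panel for each particle over PBS and one for P-Mn/TI@mHSA over P-Mn@mHSA. Filled points have an adjusted p under 0.05: 8, 9 and 0 genes from left to right.

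The order of levels per length was the same with both particles. By FPKM it ran Junb, Atf3, Jund, Fosl2, Jun, Fos, Fosl1, Maff, Fosb and Batf, in which only Fosl2 and Jun overlapped (24.2 to 27.4 and 23.3 to 26.2 FPKM with P-Mn@mHSA, 25.2 to 26.6 and 24 to 26.4 FPKM with P-Mn/TI@mHSA). In PBS libraries the order was Junb, Jund, Fosl2, Jun, Atf3, Fosl1, Fos, Maff, Batf and Fosb, and no neighbours overlapped. Fosb was thus the lowest member in PBS (0.328 ± 0.087 FPKM), whereas Batf was lowest in both particle groups (0.165 ± 0.079 and 0.062 ± 0.071 FPKM).

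No member passed the test between the 2 particles. Of the 10, 0 were called between P-Mn/TI@mHSA and P-Mn@mHSA by edgeR, where 3.82% of genes tested were called (1.48% as higher and 2.34% as lower), and 0 by DESeq2 and by limma. In the same edgeR fit without the filter on low counts 1 was called, Atf3 (adjusted p = 0.0496). At an unadjusted p under 0.05 there were 4, against 20.1% of all genes tested. They went in both directions. Fos was higher with P-Mn/TI@mHSA than with P-Mn@mHSA (log2 fold change 0.21, 95% interval 0.03 to 0.39, adjusted p = 0.17), as was Fosb (0.30, 0.00057 to 0.60, adjusted p = 0.248). Atf3 was lower (-0.22, -0.41 to -0.02, adjusted p = 0.196) and so was Maff (-0.28, -0.52 to -0.05, adjusted p = 0.158). Groups did not overlap for Fos, Fosl1, Atf3 and Maff, where 24% of genes tested did not overlap.

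For the other members the intervals bound the difference between the particles. Fosl2 (-0.13 to 0.12), Junb (-0.19 to 0.08), Jun (-0.15 to 0.18), Jund (-0.28 to 0.03) and Fosl1 (-0.36 to 0.06) had 95% intervals of the log2 fold change that included 0. The interval of Batf, -3.11 to 0.50, was too wide at this depth to show a difference in either direction. In mean CPM, the change from PBS with P-Mn/TI@mHSA was 125% of that with P-Mn@mHSA for Fos and 127% for Fosb, 92.8% for Junb, 84.2% for Jund, 83.8% for Atf3 and 63.4% for Maff.

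The genes whose pattern over the 9 libraries was most like each member were found by the root-mean-square difference of centred log2 CPM, over 9204 genes with at least 5 CPM. For Fos they were Egln1 (0.051), a prolyl hydroxylase gene of the oxygen response, Slc43a2 and the growth factor gene Pdgfb. For Fosb they were Pmepa1 (0.238), the immediate early gene Arc, and Angptl2. Atf3 was most like the kinase gene Plk2 (0.119), Angptl2 and Ndrg1. Junb was most like Pdlim7 (0.055), P4hb and Pgm1, and Jund most like Parp10, Rgs16 and P4hb. Junb and Jund were close to each other too, at 0.075, Jund being 10th for Junb and Junb 7th for Jund. Maff lay nearest to Bnip3l, Hap1 and Arfgap3, and Fosl1 to Ten1, Mfsd2a and Dhdds. Fosl2 and Jun, which changed little, lay nearest to genes that also changed little: Zc3hav1, Nsf and Rbpj for Fosl2, and Slc2a9, Zfp64 and Gltp for Jun. Batf was below 5 CPM and was not compared.

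Upstream, the transcripts of the MAP kinase cascade moved in both directions. Of 33 tested, 11 rose and 7 fell with P-Mn@mHSA and 15 rose and 8 fell with P-Mn/TI@mHSA, with medians of 0.07 and 0.14 on the log2 scale. The share called was 54.5% with P-Mn@mHSA, near the 48.5% of all genes tested, and 69.7% with P-Mn/TI@mHSA, against 54.4% of all genes. Map2k1, which encodes MEK1, rose (log2 fold changes 0.72 and 0.63, edgeR adjusted p = 1.99e-09 and 1.13e-08), as did Map2k3, a kinase upstream of p38 (0.48 and 0.56, adjusted p = 1.06e-06 and 1.23e-07), and Rps6ka4 (0.65 and 0.69, adjusted p = 4.62e-07 and 1.57e-07). Among those that fell was Braf (-0.69 and -0.86, adjusted p = 6.25e-06 and 2.89e-07). Of 6 genes of serum response factor and its cofactors, 3 rose and 0 fell with P-Mn@mHSA and 4 rose and 0 fell with P-Mn/TI@mHSA, which is 50% and 66.7% called. Srf was at 0.40 and 0.49 (adjusted p = 4.78e-05 and 3.44e-06) and its cofactor Mrtfa at 0.48 and 0.69 (adjusted p = 8.86e-05 and 7.1e-07). The 4 became 2 when replicate 2 of P-Mn/TI@mHSA or replicate 1 of PBS was left out. These are transcript levels and do not measure kinase activity.

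Other basic leucine zipper genes moved in both directions, and their shares called stand against the same 48.5% and 54.4% of all genes tested. Of 10 AP-1-related genes tested, 5 rose and 2 fell with P-Mn@mHSA and 6 rose and 4 fell with P-Mn/TI@mHSA (70% and 100% called). Jdp2, a JUN partner that represses, fell 1.42-fold and 1.39-fold (edgeR adjusted p = 5.26e-07 and 9.14e-07). Nfe2l2, which encodes NRF2, rose (log2 fold changes 0.37 and 0.31, adjusted p = 0.000136 and 0.000611). The 5 became 3 without PBS replicate 1 or P-Mn@mHSA replicate 3, and the 4 became 2 in the fits lacking P-Mn/TI@mHSA replicate 1 or 3, or PBS replicate 2. Of 10 CREB and ATF genes, 6 rose and 1 fell with P-Mn@mHSA and 6 rose and 3 fell with P-Mn/TI@mHSA (70% and 90% called). They included Xbp1 (0.64 and 0.64, adjusted p = 8.95e-09 and 8.08e-09), a factor of the unfolded protein response, and Creb3l2 (1.06 and 1.13, adjusted p = 1.35e-08 and 4e-09), while Creb1 fell (-0.78 and -0.89, adjusted p = 4.02e-07 and 5.77e-08). Atf4, a translation-controlled activator of Atf3 in the integrated stress response, rose less than Atf3 did (0.48 and 0.39, adjusted p = 3.57e-07 and 5.59e-06). Of 9 C/EBP and PAR genes, 1 rose and 2 fell with P-Mn@mHSA and 2 rose and 2 fell with P-Mn/TI@mHSA (33.3% and 44.4% called, fewer than over all genes). The number that rose with P-Mn@mHSA was 2 without PBS replicates 2 or 3 or P-Mn@mHSA replicate 2. With P-Mn/TI@mHSA it was 1 when replicate 1 of P-Mn/TI@mHSA or of PBS was left out, and 4 without PBS replicate 2. Ddit3, which encodes CHOP and is often induced alongside Atf3, was at 28.3 ± 3.26 CPM with P-Mn@mHSA, 21 ± 2.02 with P-Mn/TI@mHSA and 32.3 ± 1.84 with PBS. It did not pass the test with P-Mn@mHSA (adjusted p = 0.135) and fell 1.54-fold with P-Mn/TI@mHSA (adjusted p = 3.74e-05). Without P-Mn@mHSA replicate 2 it passed there too (log2 fold change -0.28, adjusted p = 0.0409).

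AU-rich elements in the 3′ untranslated region mark short-lived mRNAs, and the nonamer TTATTTATT is a known form. In GENCODE M21, 7.66% of 21020 genes held it in their longest 3′ untranslated region. It was present in Fos, Fosl2 and Maff and not in the other 7 members, and the sites are shown with it in capitals.
Fos: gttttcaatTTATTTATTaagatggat
Fosl2: tttattttaTTATTTATTttaaatgtt
Maff, the first of 2: tccacactcTTATTTATTgcacgaatc
Among genes with a 3′ untranslated region of like length, 4.52%, 21% and 8.45% held it for these 3. Fos and Maff rose and Fosl2 did not pass the test. Of 11 genes tested for decay of such mRNAs or turnover of AP-1 proteins, 4 rose and 3 fell with P-Mn@mHSA and 4 rose and 6 fell with P-Mn/TI@mHSA (63.6% and 90.9% called, where 48.5% and 54.4% of all genes were). Between the particles 1 of the 11 was called, as higher (9.09%, where 3.82% of all genes were). Zfp36, which encodes the decay factor tristetraprolin, fell 1.31-fold and 1.27-fold (edgeR adjusted p = 4.03e-05 and 0.000114). Trib1, whose protein guides the ubiquitin ligase COP1, rose 2.3-fold and 2.87-fold (adjusted p = 1.67e-08 and 3.55e-10), and Cop1 fell (log2 fold changes -0.59 and -0.83, adjusted p = 0.000607 and 1.43e-05).

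Genes that textbooks name as AP-1 targets moved in both directions. Of 25 tested, 9 rose and 6 fell with P-Mn@mHSA and 9 rose and 8 fell with P-Mn/TI@mHSA, with medians of 0.13 and 0.10. That is 60% and 68% called, where 48.5% and 54.4% of all genes tested were, about as many higher as lower. The genes that fell include Il11, at 0.28 ± 0.258 CPM with P-Mn@mHSA, 0.2 ± 0.134 with P-Mn/TI@mHSA and 3.89 ± 0.504 with PBS. Like Batf, Il11 passed the filter on low counts through the PBS libraries alone and so had to differ. Plau, the urokinase gene, rose 3.93-fold and 5.76-fold to 154 ± 17.1 CPM with P-Mn@mHSA and 225 ± 4.25 with P-Mn/TI@mHSA, against 39.1 ± 2.91 with PBS (edgeR adjusted p = 2.88e-14 and 4.79e-16). The cytokine gene Lif rose 4.46-fold and 3.3-fold (adjusted p = 1.99e-14 and 7.43e-13), and the cell cycle inhibitor gene Cdkn1a 3.04-fold and 2.76-fold (adjusted p = 6.6e-14 and 3.06e-13). Spp1, which encodes osteopontin, fell 2.26-fold and 3.05-fold (adjusted p = 8.72e-13 and 5.48e-15). Il1b fell 3.07-fold and 7.8-fold (adjusted p = 5.69e-10 and 1.91e-13). Between the particles, 1 of the 25 was higher with P-Mn/TI@mHSA (Plau, 1.46-fold, adjusted p = 0.000105) and 6 were lower, led by Il1b (2.54-fold, adjusted p = 8.48e-06), Spp1 (1.35-fold, adjusted p = 0.000108) and Lif (1.35-fold, adjusted p = 0.00395). That is 28% of the 25 called between the particles, where 3.82% of all genes tested were (1.48% as higher and 2.34% as lower). The count of 6 was 3 without P-Mn@mHSA replicate 2 or P-Mn/TI@mHSA replicate 1. The call of Lif was lost with limma (adjusted p = 0.0597 and 0.0599).

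Of 4 genes that ATF3 is known to repress in macrophages, Il12b and Ch25h had too few reads to test. Il6 was at 11.5 ± 2.44 CPM with P-Mn@mHSA, 6.16 ± 1.6 with P-Mn/TI@mHSA and 10.4 ± 1.45 with PBS. It did not pass the test between P-Mn@mHSA and PBS (edgeR adjusted p = 0.545), and it fell 1.69-fold with P-Mn/TI@mHSA (adjusted p = 0.00224). Ccl4 did not pass with P-Mn@mHSA and fell with P-Mn/TI@mHSA (log2 fold change -0.20, adjusted p = 0.0132). The Ccl4 call was lost without replicates 1 (0.0556) and 3 (0.0703) of P-Mn/TI@mHSA and without PBS replicate 3 (0.0865), and the direction of Il6 with P-Mn@mHSA turned without P-Mn@mHSA replicate 2 (log2 fold change -0.031, against 0.14).

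Most other immediate early genes rose. Of 20 tested, 12 rose and 2 fell with P-Mn@mHSA and 12 rose and 6 fell with P-Mn/TI@mHSA, with medians of 0.31 and 0.39. That is 70% and 90% called, where 48.5% and 54.4% of all genes tested were. Egr1, a zinc finger factor, rose 5.13-fold and 4.8-fold (edgeR adjusted p = 4.92e-14 and 1.03e-13), Arc 5.66-fold and 5.53-fold (adjusted p = 9.21e-13 and 1.08e-12), and the MAP kinase phosphatase gene Dusp5 2.96-fold and 2.49-fold (adjusted p = 6.14e-13 and 1.1e-11). Of the 2 that fell with P-Mn@mHSA, 1 was left in the fits without 1 library other than PBS replicate 2 and P-Mn/TI@mHSA replicates 2 and 3. Nr4a1, a nuclear receptor, fell 1.43-fold and 1.91-fold (adjusted p = 0.000593 and 5.12e-07). Between the particles, Myc was higher with P-Mn/TI@mHSA (1.33-fold, adjusted p = 0.0263) and Ier3 (1.22-fold, adjusted p = 0.00658) and Nr4a2 (1.73-fold, adjusted p = 0.0114) were lower. The call of Myc was lost without either of P-Mn@mHSA replicates 1 and 2 (0.0971 and 0.103) or of P-Mn/TI@mHSA replicates 1 and 2 (0.129 and 0.0915), and that of Nr4a2 without P-Mn/TI@mHSA replicate 3 (0.0723). With limma both were lost (adjusted p = 0.0736 and 0.072 for Myc, 0.0646 and 0.0647 for Nr4a2).

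**Figure D4:**
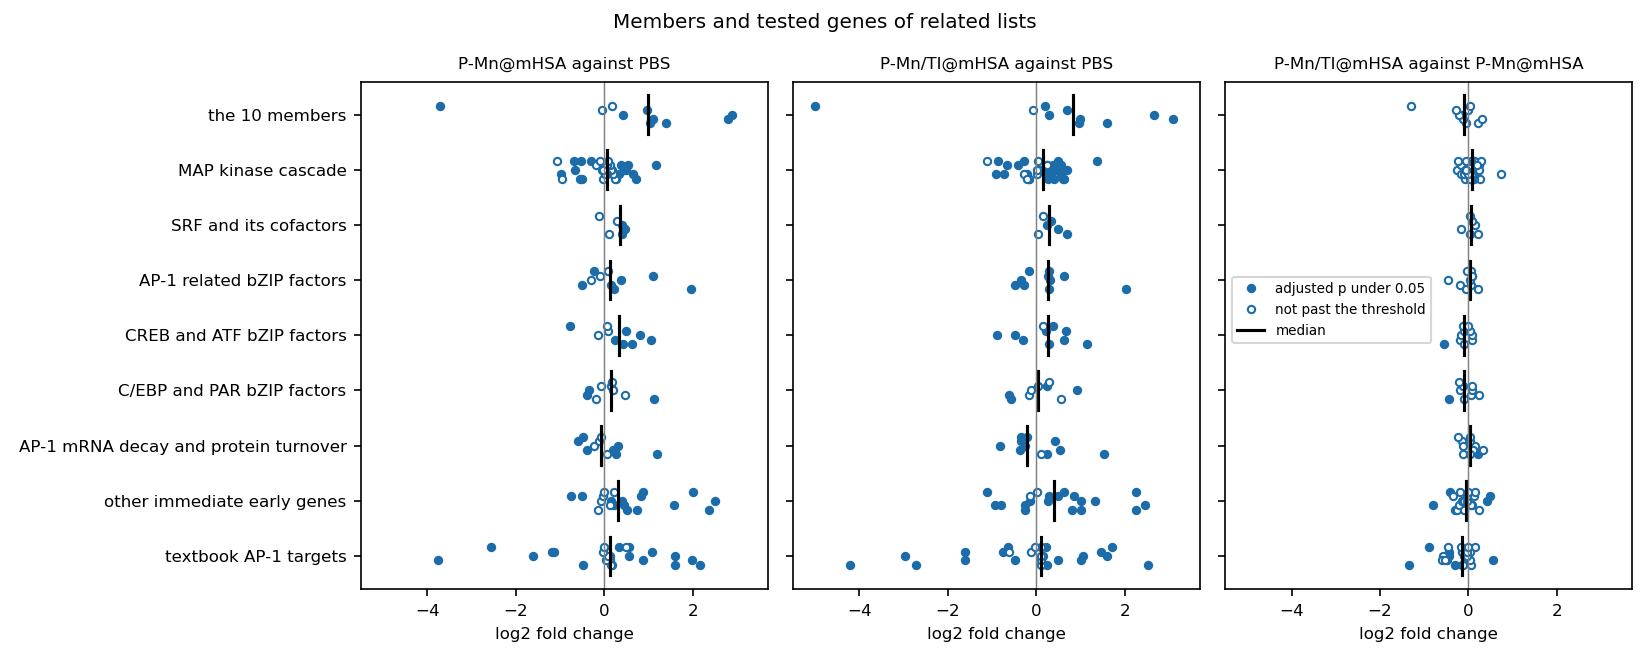
log2 fold changes of the 10 members and of the tested genes of 8 related lists, with a panel for each particle over PBS and one for P-Mn/TI@mHSA over P-Mn@mHSA. Points are genes, filled where the edgeR adjusted p is under 0.05, and black lines are medians, 0.998, 0.83 and -0.09 for the members.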

How the data were processed

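RNA sequencing reads of 9 libraries were counted per gene by the authors, and the deposited table holds raw read counts and FPKM values, per the file headers. The deposited FPKM equalled the count over gene length and 1 constant per library (largest relative deviation 5.1e-15). The submitters' processing notes list cutadapt 1.9, FastQC and genome build GRCm38; no source used here gives the aligner, counter or strand setting. Gene starts and ends of the table were used only to find genes that overlap a member.

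The 10 members and the related gene lists were chosen with earlier results of these data known. Counts were filtered with filterByExpr (12454 of 56748 genes kept), TMM-scaled and fitted with edgeR 4.0.16 in R 4.3.3 as 1 quasi-likelihood model of 9 libraries, with two-sided tests and Benjamini-Hochberg adjustment over all genes tested (threshold 0.05, common biological coefficient of variation 0.0754). Intervals are 95%. The interval of the Batf ratio is the exact conditional one and covers counting error only. Standard errors are of log2 fold changes, and ± values of levels are SD (n = 3). The fit was tested on simulated counts. No 2 libraries agreed within sampling noise.

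All members are named. In each list, up to 3 called genes with the lowest p per comparison were picked, and for each member with at least 5 CPM the 3 genes of most similar log2 CPM (prior count 2), without predicted genes and pseudogenes. Irf4, Atf4, Nr4a1, Il12b, Ch25h, Braf, Il11 and, with P-Mn@mHSA, Ddit3 fall outside that rule and were named after their values were seen. Overlapping genes were named for their position. One gene that the rule picks is not reported here. Alternatives were DESeq2 1.42.0, limma 3.58.1 on log2(FPKM + 1 or 0.1), other scalings, no filter, only the groups compared, a replicate block, and leaving out each library.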

Additional observations from a re-analysis of the deposited data

How the results depend on the processing

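Over 17 alternative settings, 8 to 9 members were called with P-Mn@mHSA against PBS, 7 to 9 with P-Mn/TI@mHSA against PBS and 0 to 1 between the particles; the 1 was Atf3 without the filter on low counts. Of the 30 member results, 24 kept their direction and side of the threshold in every setting that gave a value. Batf between the particles is among them, although it had too few counts to be fitted with only those groups and DESeq2 gave it no adjusted p. The exceptions were Jun in all 3 comparisons, Fosl1 with P-Mn/TI@mHSA against PBS, and Atf3 and Fosl2 between the particles. There, leaving out 1 library gave log2 fold changes of -0.0522 to 0.0368 for Fosl2 and -0.0147 to 0.0821 for Jun, both of uncalled size. Of 67 results of other named genes, without Braf and Il11, 57 held in every setting. Il6 with P-Mn@mHSA against PBS ran from -0.0307 to 0.2777 with 1 library left out. Over all genes, 476 were called between the particles, 791 without the filter on low counts, 155 and 143 by limma with a pseudocount of 1 and 0.1, 312 with the replicate block, and 129 (without P-Mn/TI@mHSA replicate 1) to 794 (without P-Mn@mHSA replicate 3) with 1 library left out; the cause was not tested. Replicate numbers did not pair libraries: deviations of same-numbered libraries from their group means correlated at -0.066 to 0.061, and those of other libraries at -0.098 to 0.104. The replicate block changed no call of a member. Other scalings moved the median of all genes by under 0.05 on the log2 scale. Library number and the few reads of Batf limit what the comparison between the particles can show.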
